A study of Mus musculus with 116 samples.

Results

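The genes described here encode proteins of the spliceosome and the SR and hnRNP proteins that guide it to exons. The 46 members were given as a list of gene symbols and were taken by exact symbol out of 24028 symbols found in all 4 deposited tables. All 46 were found in every table and none had repeated rows. They were split into 13 Sm and other snRNP proteins, 9 SF3 and U2AF proteins, 7 Prpf and Eftud2 proteins, 12 SR and Tra2 proteins, and 5 hnRNP proteins. All 46 passed the filter of 1 FPKM in at least 1 library of each comparison, so no member is missing from any count.

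The spliceosome removes introns from pre-mRNA. It is built from small nuclear ribonucleoproteins (snRNPs), in which a ring of Sm proteins sits on a small nuclear RNA. U1 recognises the 5′ splice site, U2AF and the SF3 complexes of U2 recognise the branch site and 3′ splice site, and the U4/U6.U5 tri-snRNP with the Prpf proteins brings in and drives the catalytic centre. SR proteins bind exons and recruit this machinery, while many hnRNP proteins bind introns or exons and oppose or redirect it. Oocytes store mRNA made before ovulation, and the mouse embryo starts large-scale transcription of its own genome at the 2-cell stage.

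The series studied RNA polymerase II and the activation of the embryonic genome in wild-type mouse oocytes and preimplantation embryos (C57BL/6N females aged 8 weeks, superovulated with PMSG and hCG and, for embryos, crossed with PWK males). About 100 oocytes or embryos went into a total RNA library. There was 1 of MII oocytes (mature oocytes, 13 h after the ovulatory hormone hCG), 1 of zygotes at the late pronuclear stage PN5 (30 h), 1 of early 2-cell embryos (36 h) and 2 of late 2-cell embryos. The late 2-cell embryos were zygotes taken 23 h after hCG and kept 14 h in 0.1% DMSO (the control) or in 60 uM DRB. DRB blocks transcription elongation by RNA polymerase II. The drug was then washed out and both groups were cultured for a further 12 h. The DRB group is named mTBE in the labels. In addition, 2 libraries of blastocyst inner cell mass (ICM), taken 98 h after hCG, were made by Smart-seq2, which selects polyadenylated RNA. The total RNA libraries were depleted of ribosomal RNA and are pools, and in bulk RNA fewer cells of a type and less RNA per cell cannot be told apart.

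Values are FPKM, fragments per kilobase of transcript, scaled to the mapped fragments of a library. The FPKM of all genes summed to 212639 to 358284 in the total RNA libraries and to 445521 and 474686 in the ICM libraries. PN5 and both late 2-cell libraries share 1 table, and MII, early 2-cell and ICM values come from 3 others that were normalized separately. Stage markers fitted the labels in part. The 10 oocyte markers were all at 1 FPKM or more in each total RNA library, and the 9 measured 2-cell markers were all at that level in both late 2-cell libraries. The ICM libraries held Nanog (105 and 133 FPKM) but also all 8 trophectoderm markers, with Krt18 at 1116 and 991 FPKM and a summed level of 1805 and 1544 against 22.2 to 72.8 FPKM in the total RNA libraries. Of the ICM markers, Nanog, Gdf3 and Tdgf1 lay above the late 2-cell control in both ICM replicates. Sox2, Klf4, Fgf4 and Esrrb lay below it in both, and Pou5f1 lay above in the first and below in the second. The 13 markers of cumulus and granulosa cells summed to 5.04 to 29.8 FPKM over all 7 libraries, with 29.8 in the control and 23.1 in the mTBE library. At 1 FPKM or more were 6 of the 13 in the control, 7 in mTBE and 1 in each other library. Among them were Amhr2 (16.7 FPKM in control and 2.12 in mTBE) and Tnfaip6 (5.60 and 4.79). Foxl2 reached 7.20 FPKM in mTBE and Cyp19a1 12.2 in PN5, while Fshr and Lhcgr were below 1 FPKM in all libraries. The 8 sperm markers summed to 0.830 to 7.66 FPKM. Prm2 was at 3.69 FPKM in MII, 5.28 in PN5, 2.13 in early 2-cell and 1.56 in mTBE embryos. Tnp1 was at 1.92 FPKM in the control and 4.98 in mTBE, and the other sperm markers, with Prm1 and Akap4, were below 1 FPKM in all libraries. The part of these transcripts in the results below was not tested.

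Promoters of 41 of the 46 members were found in a RefSeq table of build GRCm38. Those of 4 members are shown, chosen after the values were seen, because these genes mark the extremes of the comparisons below: Srsf7 was the SR gene with the largest gain from PN5 to the late 2-cell control, Sf3a1 the SF3 gene with the largest drop, Prpf6 the Prpf gene with the largest drop, and Snrpa1 the member furthest below control in the mTBE library. Each run is the 250 bases before the annotated start, 5′ to 3′ on the strand of the gene, with capitals marking matches to CCGGAAG (the core of an ETS site) and GGGCGG (a GC box) on either strand.
Srsf7 (chr17:80207306-80207555, minus strand): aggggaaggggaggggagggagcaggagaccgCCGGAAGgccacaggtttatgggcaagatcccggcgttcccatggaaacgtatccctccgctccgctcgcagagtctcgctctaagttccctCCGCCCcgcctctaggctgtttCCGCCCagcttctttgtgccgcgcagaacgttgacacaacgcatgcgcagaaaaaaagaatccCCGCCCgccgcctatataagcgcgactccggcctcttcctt
Sf3a1 (chr11:4160104-4160353, plus strand): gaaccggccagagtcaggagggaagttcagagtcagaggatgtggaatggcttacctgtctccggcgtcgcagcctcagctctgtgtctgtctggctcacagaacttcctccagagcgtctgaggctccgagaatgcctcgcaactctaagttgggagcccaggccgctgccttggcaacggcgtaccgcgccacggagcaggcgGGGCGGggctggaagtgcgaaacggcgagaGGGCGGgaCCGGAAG
Prpf6 (chr2:181601069-181601318, plus strand): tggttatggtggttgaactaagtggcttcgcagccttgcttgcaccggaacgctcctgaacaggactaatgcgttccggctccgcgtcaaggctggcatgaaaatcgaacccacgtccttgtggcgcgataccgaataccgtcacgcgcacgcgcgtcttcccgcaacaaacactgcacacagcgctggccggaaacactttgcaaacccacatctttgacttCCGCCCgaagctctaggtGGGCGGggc
Snrpa1 (chr7:66060086-66060335, plus strand): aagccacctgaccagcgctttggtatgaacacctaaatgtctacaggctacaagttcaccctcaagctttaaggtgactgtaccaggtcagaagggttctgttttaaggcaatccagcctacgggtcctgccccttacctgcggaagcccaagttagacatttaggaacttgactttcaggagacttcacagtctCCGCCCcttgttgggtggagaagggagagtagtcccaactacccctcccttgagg
The promoter of Sf3a1 holds GC boxes close to an ETS match at its very end, that of Srsf7 holds 1 ETS match and 3 GC boxes, and those of Prpf6 and Snrpa1 hold GC boxes only.

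Over the members, CCGGAAG was found in 15 of 41 genes, or 36.0% of their 50 windows, some of which overlap. The share was 6.91% of 32851 windows in the whole table and 14.9% of 7356 windows of genes at 10 FPKM or more in a total RNA library. By group it was found in 5 of 7 SF3 and U2AF genes, 4 of 11 snRNP genes, 4 of 12 SR and Tra2 genes, 2 of 6 Prpf genes and 0 of 5 hnRNP genes. GGGCGG was found in 56.0% of member windows, against 59.2% of the windows of genes at 10 FPKM or more. By group it was found in 11 of 12 SR and Tra2 genes (14 of 15 windows), 7 of 11 snRNP genes, 4 of 7 SF3 and U2AF genes, 1 of 6 Prpf genes and 1 of 5 hnRNP genes. These SR and Tra2 windows were also rich in G and C, with a median of 65.2% against 60.4% for that set. CCAAT stood in 40.0% of member windows and 37.3% of that set, and TATAAA in 10.0% and 6.46%. All 4 motifs were searched on both strands, matches of different motifs were allowed to overlap, and a match describes the letters and not a bound site.

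**Figure D1:**
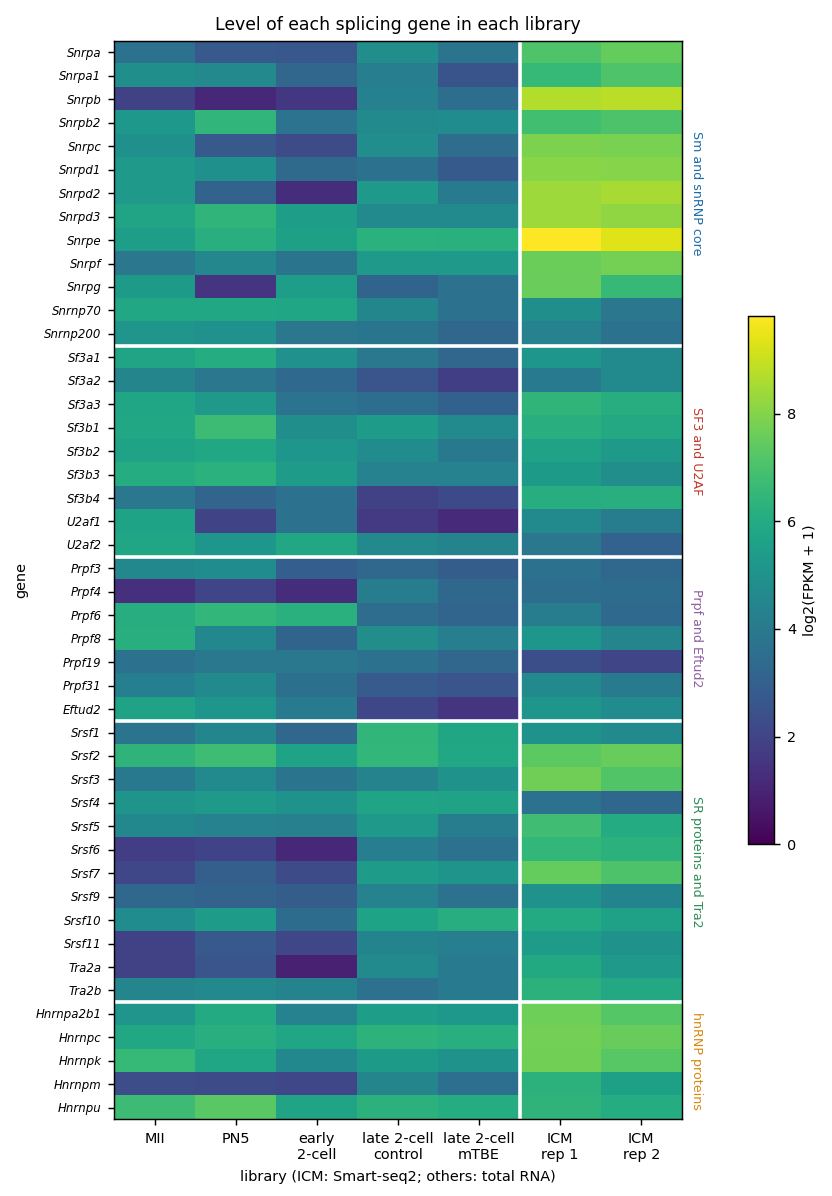
Level of each of the 46 genes (rows, by group) in each of the 7 libraries (columns) as log2(FPKM + 1), with total RNA libraries on the left and Smart-seq2 ICM libraries on the right. All SF3 and U2AF rows but U2af2, which is darkest in the ICM, are darkest in a late 2-cell library, several SR rows are darkest in the libraries before that stage, and the Sm rows are brightest in the ICM.

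The 46 genes together held 0.558% of the summed FPKM of the MII library. This share was 0.479% for PN5, 0.445% for early 2-cell embryos, 0.375% for the late 2-cell control and 0.282% for mTBE embryos. Their median level was 33.0 FPKM for MII, 24.4 for PN5, 12.6 for early 2-cell embryos, 21.4 for the control and 15.0 for mTBE embryos. All 46 were at 1 FPKM or more in each library, except Tra2a at 0.874 FPKM in the early 2-cell library. Among the 5 total RNA libraries, 15 genes were highest in PN5, 15 in the late 2-cell control, 11 in MII, 3 in the mTBE and 2 in the early 2-cell library. The mTBE library was the lowest of the 5 for 8 of 9 SF3 and U2AF genes, while for 8 of 12 SR and Tra2 genes the early 2-cell library was the lowest, and for 8 of 12 the control was the highest. The share of the groups differed in direction: SR and Tra2 genes went from 0.0859% in PN5 to 0.135% in the control, while SF3 and U2AF genes went from 0.113% to 0.0421%.

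**Figure D2:**
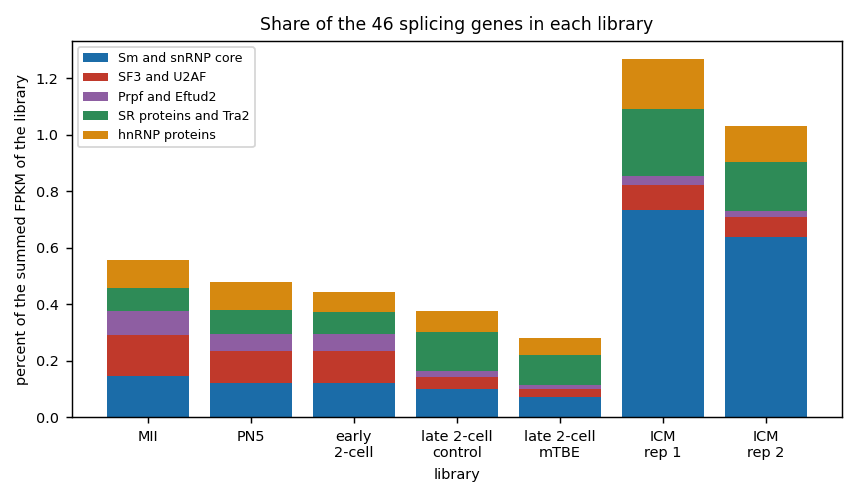
Percent of the summed FPKM of each library (bars) held by the 46 genes, stacked by group, 1 bar per library. Among total RNA libraries the stack is tallest in MII (0.558%) and lowest in the mTBE library (0.282%), and the green SR and Tra2 part is largest in the late 2-cell control.

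The step from PN5 zygotes to the late 2-cell control was read first, because both libraries stand in 1 table. A gene was called higher or lower where log2(FPKM + 1) differed by at least 1, about 2-fold. Because of the added 1, a gene just past 2-fold in FPKM can lie within this threshold. Of 46 members 13 were higher and 16 lower, with a median of -0.33, against 30.5% higher and 17.0% lower of 13022 genes and a median of 0.28. The difference over all genes depended on level, with a median of 0.83 for 5024 genes with a mean below 5 FPKM. It was 0.15 for 4220 genes of 5 to 20 FPKM and -0.17 for 3148 genes of 20 to 100 FPKM (441 higher and 747 lower). The members in the last 2 ranges had medians of 1.46 (16 genes) and -0.42 (27 genes). The groups differed in direction. Of the SR and Tra2 genes 6 of 12 were higher and 0 lower (median 1.11), while of the SF3 and U2AF genes 0 of 9 were higher and 7 lower (median -1.28). With 1 library per group there is no replicate check and no p-value, and stage cannot be told apart from the DMSO and the culture that only the late 2-cell embryos had.

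Of the 6 SR and Tra2 genes called higher, 4 had the lowest levels of the group in PN5. The PN5 value also enters the difference that made the call, so genes low in PN5 are favoured and no pattern is read from this. Srsf7, which takes part in splicing and in mRNA export, was at 3.23 FPKM in the MII library, 6.76 in PN5, 3.74 at the early 2-cell stage, 42.3 in control and 33.2 in mTBE embryos, and 181 and 133 in the ICM replicates. Srsf6, a regulator of exon choice, was at 2.41 FPKM in the MII library, 2.94 in PN5, 1.13 at the early 2-cell stage, 17.4 in control and 11.6 in mTBE embryos, and 89.0 and 78.1 in the ICM replicates. In both, the late 2-cell libraries lay above all earlier ones, and the ICM above those. Tra2a, an SR-like protein that binds GA-rich exonic enhancers, was at 2.77 FPKM in the MII library, 5.01 in PN5, 0.874 at the early 2-cell stage, 24.3 in control and 15.2 in mTBE embryos, and 61.9 and 38.2 in the ICM replicates. Srsf11, a partner of U1 and U2AF, was at 2.88 FPKM in the MII library, 5.65 in PN5, 3.27 at the early 2-cell stage, 20.4 in control and 17.2 in mTBE embryos, and 40.5 and 31.3 in the ICM replicates. Their differences between control and PN5 were 2.48 for Srsf7, 2.22 for Srsf6, 2.08 for Tra2a and 1.69 for Srsf11.

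Srsf1, the best studied SR protein, had a middling level in PN5 and reached one of the highest of the group in the control. It was at 12.6 FPKM in the MII library, 21.9 in PN5, 8.55 at the early 2-cell stage, 86.6 in control and 55.2 in mTBE embryos, and 31.8 and 25.2 in the ICM replicates. The control library was the highest of all 7 and the difference from PN5 was 1.93. Srsf9, a short SR protein, was at 8.73, 7.64, 6.49, 19.4 and 12.2 FPKM in MII, PN5, early 2-cell, control and mTBE libraries, a difference from PN5 of 1.24. Srsf5 came just under the threshold at 0.97, with 19.3 FPKM in PN5 and 38.8 in the control, and passed it with a pseudocount of 0.1, with median scaling and with rescaled sums.

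The other SR and Tra2 genes were at 14.5 FPKM or more in MII and lay within the threshold between PN5 and control. Srsf2, which activates many exons and is the most abundant SR gene in MII, was at 81.6, 108, 50.6, 88.9 and 58.0 FPKM in the same 5 libraries. Srsf4 was at 32.5, 37.4, 31.6, 52.6 and 49.5 FPKM, Srsf10 at 26.6, 41.5, 10.1, 51.2 and 67.8 FPKM and Srsf3, the smallest SR protein, at 14.5, 24.4, 12.7, 19.9 and 31.0 FPKM. Srsf4 differed from the rest of the group in the ICM, where it was at 11.8 and 8.58 FPKM, below all total RNA libraries. Tra2b, the paralog of Tra2a, stood lower instead: 21.1, 23.4, 19.7, 11.5 and 15.1 FPKM, a difference of -0.96 between control and PN5.

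Of the hnRNP genes 1 of 5 was called higher and 0 lower, with a median of -0.41. Hnrnpm, which binds GU-rich introns, was at 3.94 FPKM in the MII library, 3.79 in PN5, 3.27 at the early 2-cell stage, 21.0 in control and 11.0 in mTBE embryos, and 78.8 and 46.9 in the ICM replicates, and its difference between control and PN5 was 2.20. The other 4 were at 33.4 FPKM or more in MII and within the threshold between PN5 and control. Hnrnpu, a nuclear scaffold protein and the most abundant member in MII and PN5, was at 104 FPKM in the MII library, 157 in PN5, 51.8 at the early 2-cell stage, 78.4 in control and 66.0 in mTBE embryos, and 82.4 and 66.2 in the ICM replicates. Its difference from PN5 of -0.99 lay at the edge of the threshold. Hnrnpk, a poly(C)-binding protein, was at 94.1, 53.1, 23.0, 39.7 and 30.9 FPKM, Hnrnpa2b1 at 33.4, 63.3, 19.7, 43.2 and 36.2 FPKM and Hnrnpc, which binds uridine tracts, at 56.5, 69.9, 53.0, 79.6 and 72.2 FPKM.

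Almost all SF3 and U2AF genes stood lower in the late 2-cell control, with 9 of 9 below PN5 by any size against 42.2% of all genes. That share was taken over genes of every level and not at the level of this group. Sf3b1, the large SF3b subunit that clamps the branch site, was at 56.1 FPKM in the MII library, 104 in PN5, 28.4 at the early 2-cell stage, 42.3 in control and 25.2 in mTBE embryos, and 69.3 and 60.4 in the ICM replicates. Sf3b3, its scaffold partner, was at 66.4 FPKM in the MII library, 77.0 in PN5, 41.4 at the early 2-cell stage, 19.6 in control and 19.4 in mTBE embryos, and 39.5 and 27.6 in the ICM replicates. Sf3a1, the largest SF3a subunit, was at 52.6 FPKM in the MII library, 66.6 in PN5, 30.4 at the early 2-cell stage, 14.3 in control and 8.43 in mTBE embryos, and 34.4 and 24.1 in the ICM replicates. In each of these, PN5 was the highest of the 5 total RNA libraries, and the late 2-cell control lay below it, with differences of -1.28, -1.92 and -2.14 in log2(FPKM + 1). Sf3a3 (37.2 FPKM in PN5 and 10.6 in the control), Sf3a2 (13.9 and 5.01), Sf3b2 (56.0 and 25.6) and Sf3b4 (8.30 and 2.87) were also lower by the size rule, Sf3b2 not with median scaling (-1.10 against -0.97). U2af2, the large U2AF subunit that reads the polypyrimidine tract, was within the threshold at 34.4 and 24.9 FPKM.

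Among the Prpf genes and Eftud2, which belong to the tri-snRNP and the Prp19 complex, 4 of 7 were lower and 1 higher (median -1.46). Prpf6, the bridging protein of the tri-snRNP, was at 67.6 FPKM in the MII library, 90.2 in PN5, 73.6 at the early 2-cell stage, 10.3 in control and 8.12 in mTBE embryos, and 16.5 and 9.16 in the ICM replicates. Eftud2, the GTPase of U5, was at 48.8 FPKM in the MII library, 35.0 in PN5, 15.8 at the early 2-cell stage, 3.23 in control and 1.81 in mTBE embryos, and 35.0 and 25.5 in the ICM replicates. These were the steepest drops of all members, -3.01 and -3.09. Prpf31 (24.5 FPKM in PN5 and 6.10 in the control) and Prpf3 (26.0 and 8.82), both of the U4/U6 part, were lower as well. Prpf4, which forms a complex with Prpf3 in U4/U6, stood higher instead, at 1.55 FPKM in the MII library, 3.19 in PN5, 1.43 at the early 2-cell stage, 16.4 in control and 8.62 in mTBE embryos, and 10.6 and 10.2 in the ICM replicates. Prpf8, the core of the catalytic centre, was at 73.1, 23.1, 8.00, 28.0 and 17.4 FPKM, and Prpf19, the ubiquitin ligase of the complex named after it, at 11.8, 14.1, 14.0, 11.6 and 8.43 FPKM, both within the threshold.

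The snRNP group was evenly divided, with 5 of 13 higher and 5 lower in the control than in PN5 (median 0.10). Snrpb, which encodes the SmB ring proteins and is closely similar in sequence to Snrpn, was at 2.80 FPKM in the MII library, 1.16 in PN5, 2.00 at the early 2-cell stage, 19.0 in control and 10.7 in mTBE embryos, and 414 and 448 in the ICM replicates. Its difference from PN5 of 3.21 was the largest gain of any member, and how reads shared with Snrpn were counted is not known here. Snrpd2, another ring protein, was at 38.3 FPKM in the MII library, 7.61 in PN5, 1.44 at the early 2-cell stage, 38.6 in control and 15.2 in mTBE embryos, and 334 and 366 in the ICM replicates, with its lowest value in the early 2-cell library. The U1 proteins Snrpa (5.77 FPKM in PN5 and 28.0 in the control) and Snrpc (5.68 and 26.9) were higher too, while Snrnp70, a further U1 protein, was lower (58.6 and 21.8).

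The ring proteins did not move as a set. Snrpd3 had 85.2 FPKM in PN5 and 25.1 in control, and Snrpd1 had 29.4 and 11.9, both lower. Snrpe, the most abundant Sm gene in the late 2-cell libraries, was at 42.6, 71.8, 47.2, 76.9 and 74.4 FPKM in MII, PN5, early 2-cell, control and mTBE, and Snrpf at 13.9, 22.3, 12.7, 37.3 and 37.8 FPKM, both within the threshold. Of the U2 proteins, Snrpb2 (87.9 and 24.9 FPKM in PN5 and control) was lower and Snrpa1 (23.3 and 17.2) within the threshold, and Snrnp200, the U5 helicase that unwinds U4 from U6, was lower (29.9 and 13.1).

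For 2 members the levels differed between the shared table and the others, and table and stage cannot be told apart with 1 library per stage. Snrpg, a ring protein, was at 40.0 FPKM in the MII library, 1.83 in PN5, 43.8 at the early 2-cell stage, 8.07 in control and 12.0 in mTBE embryos, and 189 and 94.4 in the ICM replicates. U2af1, the small U2AF subunit that reads the 3′ splice site, was at 51.5 FPKM in the MII library, 3.08 in PN5, 11.5 at the early 2-cell stage, 2.17 in control and 1.29 in mTBE embryos, and 24.8 and 17.0 in the ICM replicates. In both, MII and early 2-cell, which have tables of their own, lay at least 2-fold above all 3 libraries of the shared table. By time, the early 2-cell stage falls between PN5 and the late 2-cell stage. This pattern was found for 237 of 14501 genes, and the opposite one for 483. The part of the table in the difference of Snrpg between PN5 and control (1.68) was not tested.

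**Figure D3:**
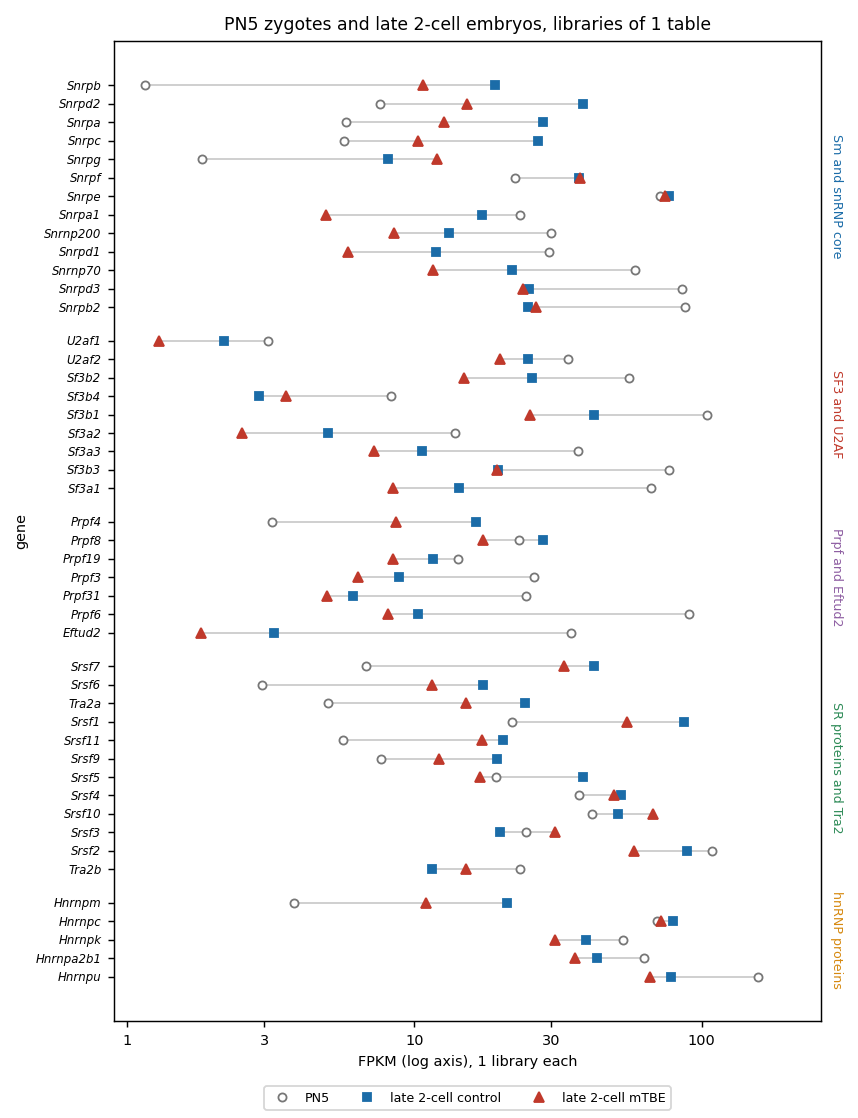
FPKM (log axis) of each of the 46 genes in PN5 (open circles), the late 2-cell control (squares) and the mTBE library (triangles), 1 library each, sorted within each group by the difference between control and PN5. Most triangles lie left of the squares, and the circles lie left of the squares for most SR genes and right of them for all 9 SF3 and U2AF genes.

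The comparison of the mTBE library with its control asked how these genes stood 12 h after release from a block of elongation. Nearly all were somewhat lower: 39 of 46 lay below their control value by any size, against 53.4% of 13726 genes, and the median difference was -0.48 against -0.05. Stage markers differed between these libraries too: the 9 markers of the 2-cell stage summed to 421 FPKM in control and 205 in mTBE, and the 10 oocyte markers to 2658 and 3385, and their part in the result was not tested. Differences past the threshold were few, with 5 of 46 members lower and 0 higher, against 9.99% lower and 5.57% higher over all genes, so that the share past it was near the background. At a difference of 0.58, about 1.5-fold, 20 of 46 (43.5%) were lower and 1 higher, against 22.2% lower and 14.4% higher of all genes. The ICM replicates, which differ in no condition, gave a spread to read this by: 37 of 46 members lay below 0 (67.2% of all genes), 10 were at least 1.5-fold lower (16.3%), 1 was as much higher (6.64%) and the median was -0.36 (-0.20), and 1 member was past the threshold (2.79% of all genes lower and 2.31% higher).

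The 5 genes past the threshold were 4 of 13 snRNP genes and 1 of 12 SR and Tra2 genes, against 9.99% lower of all genes. Their share over all members was near that background, so where they fell is only described. Snrpa1, a U2 protein that binds the U2 RNA with Snrpb2, was at 28.4 FPKM in the MII library, 23.3 in PN5, 8.39 at the early 2-cell stage, 17.2 in control and 4.93 in mTBE embryos, and 94.6 and 138 in the ICM replicates. Its mTBE level was the lowest of the 7 libraries, and the difference from control was -1.62. Snrpc, which helps U1 hold the 5′ splice site, was at 29.2 FPKM in the MII library, 5.68 in PN5, 3.72 at the early 2-cell stage, 26.9 in control and 10.3 in mTBE embryos, and 235 and 231 in the ICM replicates. For Snrpa, which binds a loop of the U1 RNA, the level was 11.6 FPKM in the MII library, 5.77 in PN5, 5.38 at the early 2-cell stage, 28.0 in control and 12.7 in mTBE embryos, and 138 and 182 in the ICM replicates. Both U1 genes stood lower in the mTBE than in the control library (-1.30 and -1.08) but above PN5, and Snrpa was just within the threshold with median scaling (-0.99). Snrpd2, with the values given above, was lower as well (-1.29). Srsf5, an SR protein known for fast changes with growth signals, was at 23.0 FPKM in the MII library, 19.3 in PN5, 18.5 at the early 2-cell stage, 38.8 in control and 17.0 in mTBE embryos, and 112 and 64.5 in the ICM replicates, a difference of -1.15. Its mTBE level was close to that in PN5.

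The snRNP group had the lowest median (-0.77) and the widest range, from -1.62 for Snrpa1 to 0.51 for Snrpg. The ring proteins as such had a median of -0.06: Snrpe, Snrpf, Snrpd3 and Snrpb2 of U2 were within 0.1 of control, whereas Snrpd1 (11.9 FPKM in control and 5.86 in mTBE, a difference of -0.91, and -1.01 with a pseudocount of 0.1) and Snrpb (19.0 and 10.7) were lower but within the threshold. Snrnp70 (21.8 and 11.6) and Snrnp200 (13.1 and 8.50) were lower too. Of the SF3 and U2AF genes 8 of 9 were below control, with a median of -0.49 and 0 past the threshold. Sf3b1 had 42.3 FPKM in control and 25.2 in mTBE, Sf3b2 had 25.6 and 14.8, while Sf3b3 was level at 19.6 and 19.4 and Sf3b4 stood above at 2.87 and 3.58.

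All 7 Prpf and Eftud2 genes and all 5 hnRNP genes were below control, by medians of -0.42 and -0.25, with none past the threshold. Prpf4 (16.4 and 8.62 FPKM) and Hnrnpm (21.0 and 11.0) had the largest differences of these groups. Between the ICM replicates the same 2 groups also lay on 1 side in all 7 and all 5 genes. The SR and Tra2 genes had a median of -0.45 and the only member at least 1.5-fold above control: Srsf3, with 19.9 FPKM in control and 31.0 in mTBE. Srsf10 (51.2 and 67.8) and Tra2b (11.5 and 15.1) also stood above. Srsf1 (55.2 FPKM in mTBE), Srsf2 (58.0), Srsf6 (11.6), Srsf9 (12.2) and Tra2a (15.2) were below control by -0.61 to -0.65, except Srsf6 at -0.55. Srsf3 has a named pseudogene in RefSeq, so its reads may be shared with a copy. Only pseudogenes named after a member's symbol were looked for, so other members may have copies that were not found.

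The genes that stood higher in the control than in PN5 and those that stood lower in mTBE cannot be set against each other, since the same control library enters both. Values of members at the extremes of the first comparison are listed for description only, without relating one difference to the other. They were 2.48 and -0.34 for Srsf7, 2.22 and -0.55 for Srsf6, 3.21 and -0.77 for Snrpb, -3.09 and -0.59 for Eftud2, and -3.01 and -0.31 for Prpf6. The difference over all genes depended on level: the median was -0.22 for 4555 genes with a mean of 5 to 20 FPKM and -0.09 for 2855 genes of 20 to 100 FPKM. The members in these ranges had medians of -0.57 (21 genes) and -0.31 (21 genes).

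**Figure D4:**
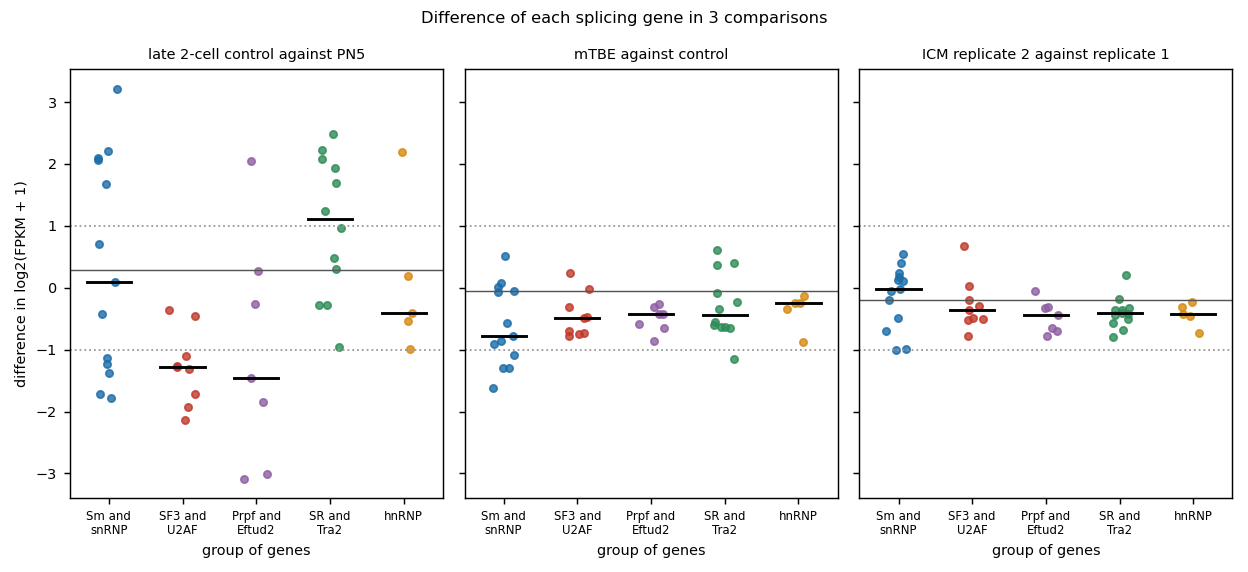
Difference in log2(FPKM + 1) of each gene (points, by group) between control and PN5, between mTBE and control, and between the ICM replicates. Black bars are group medians, the solid grey line is the median of all genes and dotted lines mark the threshold of 1; SR and SF3 groups part in the first panel (medians 1.11 and -1.28), while all 5 group medians lie below 0 in the other panels.

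Other genes of the splicing machinery were taken from 8 lists, of which 159 genes could be measured in the late 2-cell libraries. In mTBE embryos 27 of 159 were lower past the threshold and 1 higher (median -0.29), against 9.99% lower and 5.57% higher of all genes, the shares to read each list by. The Prp19 complex and catalytic step proteins had the lowest median, -0.84, with 10 of 28 lower and 0 higher. Its most abundant genes were within the threshold: Crnkl1 had 47.7 FPKM in control and 27.6 in mTBE, Syf2 had 81.2 and 81.5, and Plrg1 had 30.7 and 27.4. The 11 minor spliceosome genes, which serve the rare U12-type introns, were all below control (median -0.58) with 3 past the threshold. Pdcd7 was at 46.2 and 31.6 FPKM, Zcrb1 at 15.6 and 12.6, and Scnm1 at 8.62 and 5.40.

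The remaining lists had medians closer to that of all genes, and levels are given for control first and mTBE second. Of the other tri-snRNP proteins 3 of 14 were lower (median -0.42), with Sart3 at 28.7 and 17.9 FPKM, Snrnp27 at 40.5 and 43.3, and Nhp2l1 at 48.0 and 34.0. Of the other U1, U2 and branch site proteins 3 of 21 were lower (median -0.34), with Phf5a, a small SF3b subunit, at 80.1 and 64.2, Rbm17 at 49.0 and 24.4, and Dnajc8 at 28.6 and 40.8. Of the LSm and Sm assembly proteins 4 of 21 were lower and 1 higher (median -0.26), with Gemin7 at 55.4 and 64.9, Strap at 88.5 and 89.2, and Smn1, the core of the SMN complex that loads Sm rings, at 29.9 and 22.7. Of the exon junction complex and its partners 3 of 15 were lower (median -0.13), among them Eif4a3, its RNA helicase, at 54.1 and 16.0, beside Magoh at 101 and 92.0 and Upf1 at 48.1 and 51.1.

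Of the 8 lists, that of other hnRNP genes and splicing repressors had the median nearest to 0. Of its 29 genes 0 were past the threshold in either direction, with a median of 0.08. Raly had 252 FPKM in control and 315 in mTBE, Pcbp1 had 121 and 108, and Khsrp had 115 and 105. Of the SR protein kinases and SR-related proteins 1 of 20 was lower (median -0.27), with Srpk1, which phosphorylates SR proteins, at 135 and 140.0, Rbm39 at 67.9 and 57.9, and Scaf1 at 37.3 and 35.3. Between PN5 and control the 8 lists together held 34 higher and 31 lower of 157 genes, against 30.5% higher and 17.0% lower of all genes.

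Steps across separately normalized tables were read beside a shift of the whole table, taken as the median log2 ratio over genes that reached 5 FPKM in both libraries. It was 0.33 for PN5 against MII, -0.57 for early 2-cell against MII and 0.60 for the late 2-cell control against early 2-cell. From MII to PN5, 1 of 46 members was higher and 5 lower, with a median of 0.19, against 8.77% higher and 9.23% lower of all genes and a median of 0.24. The higher gene was Snrpb2 (36.7 FPKM in MII and 87.9 in PN5), which was within the threshold with median scaling, and the lower ones were Snrpc, Snrpd2, Snrpg, U2af1 and Prpf8 (-1.62 to -3.86). Early 2-cell embryos against MII had 15 of 46 members lower and 0 higher, against 28.8% lower and 3.98% higher of all genes, and the median of -0.64 was close to the -0.58 of all genes. With median scaling 10 members were lower, with a median of -0.09. The largest drop was that of Snrpd2 (-4.01), followed by Prpf8 (-3.04) and Snrpc (-2.68).

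From the early 2-cell to the late 2-cell control the SR and SF3 groups also stood apart, in a comparison that uses the same control library as that with PN5. Of the SR and Tra2 genes 8 of 12 were higher and 0 lower (median 1.84), and of the SF3 and U2AF genes 0 of 9 were higher and 5 lower (median -1.03), against 49.6% higher and 8.62% lower of all genes and a median of 0.99. The 5 lower genes include U2af1 (-1.98), whose levels differed between tables as described above. The part of the table in its difference was not tested. Tra2a showed the largest gain of the SR and Tra2 genes (3.76) and its paralog Tra2b was the one gene of the 12 below 0 (-0.73, and -1.27 with median scaling, past the threshold). Over all members 17 were higher and 9 lower, and with median scaling 13 and 14. With median scaling the SR and Tra2 genes counted 6 higher and 1 lower (median 1.26), as Srsf5 (0.45) and Srsf9 (0.88) came under the threshold, and the SF3 and U2AF genes 0 higher and 7 lower (median -1.59). The SR and Tra2 genes held 0.0786% of the summed FPKM in the early 2-cell and 0.135% in the control library, and the SF3 and U2AF genes 0.111% and 0.0421%.

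In the ICM the members with the highest levels were ring proteins, among them Snrpe, Snrpb, Snrpd2 and Snrpd3, while Snrpg was lower (189 and 94.4 FPKM). All 7 ring proteins were past the threshold above the late 2-cell control, with a median of 3.57, and Snrpe, at 900.2 and 643 FPKM, was the most abundant member of both libraries. Over all members 26 were higher and 4 lower (median 1.49), against 25.0% higher and 47.8% lower of all genes and a median of -0.88. This difference depended on level: of 761 genes whose mean reached 100 FPKM, 483 were higher, with a median of 2.62, and the 11 members in that range had a median of 3.07. Snrpb (414 and 448 FPKM), Snrpd2 (334 and 366) and Snrpd3 (332 and 288) followed Snrpe. The hnRNP genes were at 46.9 to 218 FPKM, with Hnrnpc at 218 and 185. Lower than in the control were Srsf4 (-2.28), Srsf1 (-1.58), Prpf19 (-1.45) and U2af2 (-1.20, and -0.81 without ICM replicate 2). The ICM libraries differ from the others in protocol, in table and in trophectoderm transcripts, and stage cannot be told apart from these.

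Replicates of the ICM differed most for Snrnp70 (28.5 and 13.7 FPKM) and Snrpg (189 and 94.4), with log2 differences of -1.01 and -0.99. Snrpc (235 and 231), Snrpd1 (271 and 263) and Sf3b4 (69.1 and 70.1) agreed most closely among those named here. Sf3a2 (15.1 and 24.6) and Snrpa1 (94.6 and 138) were the furthest in the other direction, at 0.67 and 0.54.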

How the data were processed

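RNA was measured in 7 libraries, and 109 chromatin samples were not used here. FPKM values per gene symbol are as deposited by the authors. Mm9 is the build, and CASAVA 1.8, TopHat2 2.1.1 and Cufflinks 2.1.1 are the tools, that stand in the submitters' processing notes, with no role stated. How multi-mapped reads and strand were treated was not given in the sources used here, so genes with near-identical copies, overlaps or antisense partners are uncertain. Read depth is unknown, and no interval was computed. Of the value columns, 0 lacked a sample. MII values were assigned by the sample their table is listed with, since the header of that table repeats the title of a chromatin sample. The column headed as DRB was taken as the mTBE library, and the column headed as 1-cell as PN5.

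Rows sharing a symbol were summed. Differences were taken on the log2(FPKM + 1) scale, which understates the fold of low genes, where either library reached 1 FPKM. ICM levels in comparisons were the mean log2 value of 2 replicates. Nothing says that these came from separate collections, so their spread may be technical. No test was made, because only the ICM, made with another protocol, has replicates. The members, lists and comparisons were chosen with earlier results of these data known. All 46 members are named, and of each of 8 other lists the 3 genes with the highest mean FPKM over the 5 total RNA libraries. Sequences are from RefSeq (GRCm38). Protein sequences, planned for use, were not analysed here. Scripts used Python 3.11.15, pandas 2.3.3, numpy 2.4.6 and matplotlib 3.10.9 and were tested on simulated data.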

Additional observations from a re-analysis of the deposited data

How the results depend on the processing

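No called value changed sign under any setting that was run, but only some of the settings could change the difference of a member. The settings were a pseudocount of 0.1 FPKM, a filter at 5 FPKM or none, scaling by the median ratio, rescaling each library to a sum of 1000000, the largest row of a symbol in place of the sum, a threshold of 0.58, each ICM replicate left out, and, chosen after seeing the data, Srsf3 left out for its pseudogene. The filters, the threshold and leaving out Srsf3 do not alter a member's difference, and neither does the largest row, since no member had repeated rows. No paired analysis was possible because the groups compared share fewer than 2 replicate numbers.

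Between mTBE and control, a threshold of 0.58 gave 1 member higher and 20 lower, in place of 0 and 5. Its lower genes were 7 snRNP, 4 SF3 and U2AF, 3 Prpf and Eftud2, 5 SR and Tra2 and 1 hnRNP, with 1 SR gene higher. The snRNP median of -0.77 was -0.82 with a pseudocount of 0.1, -0.68 with median scaling and -0.84 with rescaled sums. Between control and PN5, the snRNP median was 0.22 with median scaling, and a pseudocount of 0.1 put 1 SR or Tra2 gene (Tra2b) and 1 hnRNP gene (Hnrnpu) past the threshold as lower.

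Among steps across tables, from MII to PN5 the members' median of 0.19 was -0.13 with median scaling and -0.10 with rescaled sums, 0 members were higher under both, 8 were lower with rescaled sums, and 2 were higher with a pseudocount of 0.1. For early 2-cell against MII the median was -0.094 with median scaling and -0.23 with rescaled sums. For control against early 2-cell it was 0.071 and -0.045, with 14 lower under both. The ICM median of 1.49 against control was 1.16 with rescaled sums and ranged from 1.19 to 1.66 with either ICM replicate left out. Between the ICM replicates 0 members were lower with median scaling and 2 with rescaled sums. The cause of these shifts was not tested. Read depth is unknown, so counting error of low values could not be given.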
